A study of Mus musculus with 6 samples.

Results

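The genes described here are the 10 that build, load and switch on the MHC class II presentation system of the mouse, among 46603 gene identifiers counted in visceral adipose tissue. They were taken by symbol: the chains H2-Aa, H2-Ab1 and H2-Eb1, the invariant chain Cd74, the peptide-loading genes H2-DMa, H2-DMb1, H2-DMb2, H2-Oa and H2-Ob, and the transactivator Ciita. The rule for taking them used no measured value, but earlier results of these data were known when they were chosen. All 10 passed the filter on low counts and stood among the 15828 genes tested. RNA came from the visceral fat of untreated C57/Bl6 mice of 18 months, with 3 wild-type libraries (WT) and 3 libraries from mice without nuclear myosin 1 (NM1 KO), the nuclear isoform of the motor protein made from Myo1c. The sources used here do not give the altered part of Myo1c, the cells in which it was altered, or the sex of the mice. Nothing in the labels states that each library is a separate animal, so the spread between libraries may be technical.

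MHC class II molecules carry peptides from endosomes to the cell surface, where CD4 T cells read them. An alpha and a beta chain pair in the endoplasmic reticulum around the invariant chain, which blocks the groove and steers the complex to endosomes. There proteases trim the invariant chain, the H2-DM heterodimer exchanges its last fragment for a peptide, and the H2-O heterodimer holds H2-DM back. CIITA is the coactivator that switches the whole set on, in B cells and dendritic cells from the start and in macrophages after interferon-gamma. In C57/Bl6 mice H2-Aa and H2-Ab1 form the class II molecule I-A, whereas the alpha chain gene of I-E is inactive, so that H2-Eb1 has no partner.

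CIITA does not touch DNA itself but joins factors bound to a shared promoter module, in which RFX proteins sit on the X box and NF-Y on the Y box, a CCAAT box read on the reverse strand. The promoters are shown so that the letters of that module can be looked for in the members. Windows from 250 bases before to 50 after each start were taken from RefSeq on GRCm38.p6 for 7 members on chromosome 17, and promoters of the other 3 are not shown. The stretch from position -150 to -31 (the base before the start is -1) is printed 5′ to 3′ on the gene's strand for 5 genes, at chr17:34287854-34287973 for H2-Aa (minus strand), and on the plus strand at chr17:34305717-34305836 for H2-Eb1, chr17:34153041-34153160 for H2-DMb1, chr17:34145099-34145218 for H2-DMb2 and chr17:34238755-34238874 for H2-Ob. Capitals mark CCAAT on either strand, the longer Y box CTGATTGG and the X box core AGNNACNGA.
H2-Aa: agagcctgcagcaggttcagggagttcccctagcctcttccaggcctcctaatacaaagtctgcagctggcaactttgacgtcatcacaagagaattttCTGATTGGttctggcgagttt
H2-Eb1: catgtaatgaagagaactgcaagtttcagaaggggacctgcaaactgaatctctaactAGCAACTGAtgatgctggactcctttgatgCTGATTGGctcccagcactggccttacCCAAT
H2-DMb1: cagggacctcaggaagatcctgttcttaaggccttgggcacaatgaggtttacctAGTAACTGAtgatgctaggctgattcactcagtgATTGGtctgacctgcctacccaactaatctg
H2-DMb2: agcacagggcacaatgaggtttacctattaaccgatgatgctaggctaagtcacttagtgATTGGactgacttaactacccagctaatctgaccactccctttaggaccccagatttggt
H2-Ob: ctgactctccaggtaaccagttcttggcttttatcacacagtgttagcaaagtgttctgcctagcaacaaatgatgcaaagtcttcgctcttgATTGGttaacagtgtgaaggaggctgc

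CCAAT, searched on both strands, stood in the windows of all 7 members and in 37.4% of 32817 mouse promoters. On the reverse strand and between positions -100 and -30 it stood in 6 of the 7 members, against 8.2% of promoters. H2-DMa was the exception, with a match that began at -198 from one of its starts. The longer Y box, whose last 5 letters are the reverse CCAAT, stood in 3 of the 7 (H2-Aa, H2-Eb1 and H2-Oa) and in 4.1% of promoters. The X box core, searched on both strands, stood in 4 of the 7 (H2-Eb1, H2-DMb1, H2-Oa and H2-Ob, in H2-Ob only downstream of the start) and in 17.7% of promoters, and in H2-Eb1 and H2-DMb1 it began at -92 and -95, upstream of the reverse CCAAT. H2-DMb2, printed beside its neighbour H2-DMb1, holds the reverse CCAAT but not the X box core in these letters. A match of letters is a description and not a bound site.

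**Figure D1:**
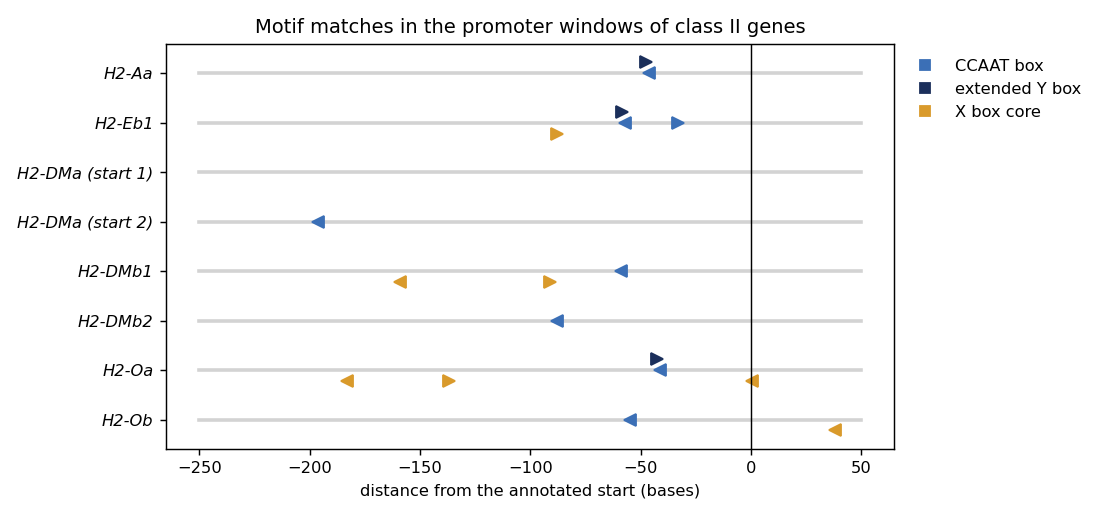
Position of motif matches (arrowheads, pointing along the strand that holds the letters) in bases from the annotated start, for the 8 RefSeq promoter windows of 7 class II genes. The CCAAT matches on the reverse strand gather between positions -100 and -30 in 6 of the 7 genes.

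Total gene counts lay between 24677758 and 33537818 per library. Myo1c, counted over every isoform, was at 801, 759 and 801 CPM (counts scaled to TMM-adjusted library size) in WT replicates 1 to 3 and at 452, 697 and 551 CPM in NM1 KO replicates 1 to 3, with no overlap, and was not called (log2 -0.47 ± 0.17, adjusted p = 0.151). Called means under 0.05 after adjustment over all genes in the quasi-likelihood test of edgeR. Over all genes 4.25% were called, 2.79% were called higher in NM1 KO, and 29.9% had WT and NM1 KO ranges without overlap. An unadjusted p under 0.05 was reached by 13% of all genes with a higher and 10.8% with a lower level in NM1 KO. Markers of the labelled tissue were abundant: the adipocyte gene Adipoq averaged 2478 ± 76.1 CPM over WT libraries and 2132 ± 281 CPM over NM1 KO libraries (SD, n = 3, adjusted p = 0.413), and 0 of 7 adipocyte genes were called by edgeR, with 1 at an unadjusted p under 0.05 (higher). Of 6 genes of vascular endothelium 4 were called, all lower, and of 5 monocyte genes 0 were called, with 0 at an unadjusted p under 0.05. Means are given ± SD with n = 3 per group, and log2 fold changes, positive where NM1 KO was higher, ± SE with a 95% interval.

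Of the 10 members, 1 was called, against that background of 4.25%, and it was higher in NM1 KO. It was H2-DMb1, the beta chain of the peptide-loading heterodimer. The 3 chains, the invariant chain and Ciita were not called, and their groups overlapped. DESeq2 and limma-voom each called the same 1 member, where they called 12.8% and 3.87% of all genes. The median log2 fold change of the 10 was 0.16, with 9 positive and 1 negative. That of all genes tested was -0.0021, with 7874 positive and 7954 negative. For 1 of the 10, H2-DMb1, the groups had no overlap, beside 29.9% of all genes. In bulk tissue, a change in the number of cells that hold a transcript and a change in its amount per cell cannot be told apart.

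**Figure D2:**
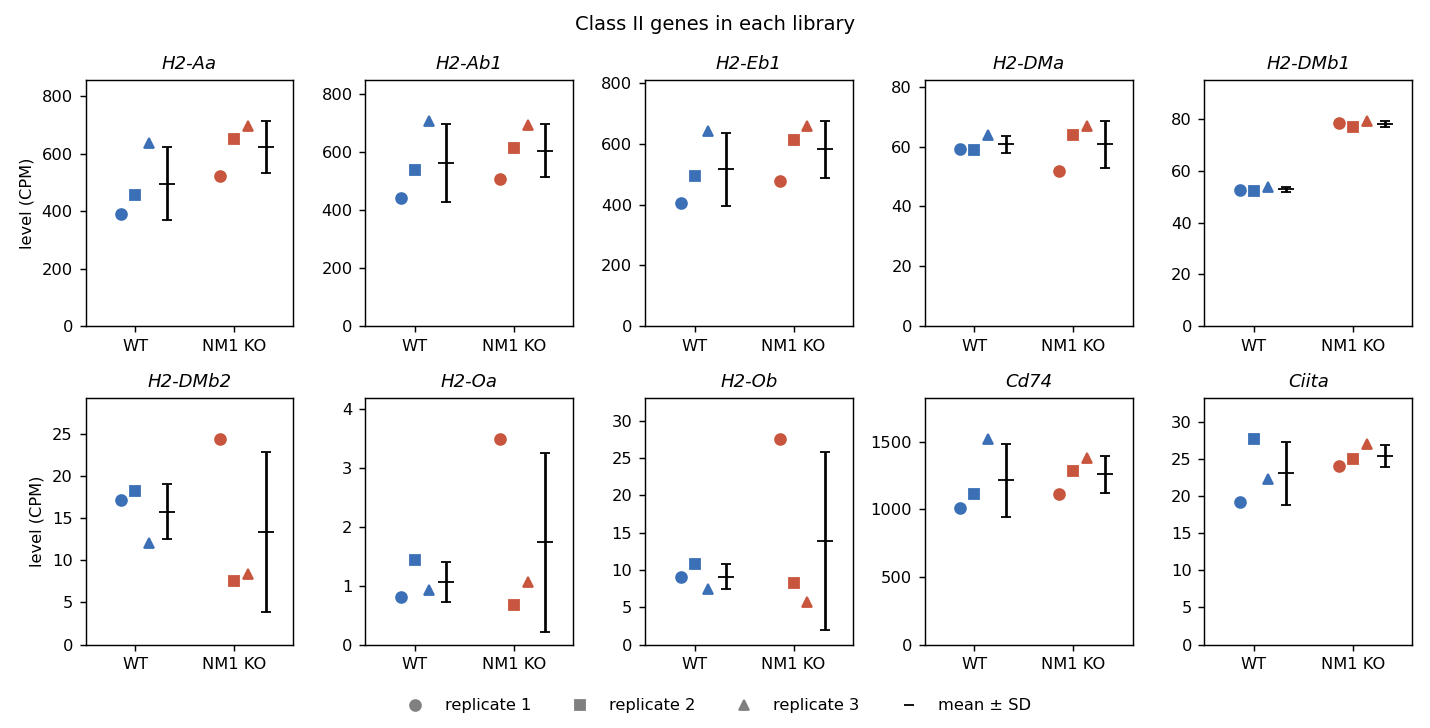
Level in CPM of the 10 class II genes in each library (points, shaped by replicate number) with the mean ± SD of each group (black), each panel on its own axis from 0. H2-DMb1 is the gene whose groups do not overlap, and NM1 KO replicate 1 stands above all others for H2-DMb2, H2-Oa and H2-Ob.

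The levels were compared between genes per kilobase of the principal transcript. Cd74 was highest in WT, at 861 ± 190 CPM per kb. H2-Ab1 (465 ± 111) and H2-Aa (439 ± 113) followed with overlapping ranges, H2-Aa being a little lower in each WT library, and H2-Eb1 was at 309 ± 71.8 although it has no partner chain in this strain. The next level lay about an order of magnitude lower: H2-DMb1 was at 37.7 ± 0.602 and H2-DMa, its partner, at 36.6 ± 1.68 CPM per kb, with overlapping ranges. H2-DMb2 was at 11.1 ± 2.28. Ciita (3.84 ± 0.715) and H2-Ob (3.41 ± 0.621) overlapped, and H2-Oa was lowest at 0.972 ± 0.307. With the union of all annotated exons as the length, H2-Aa fell to 130 and H2-Ab1 to 219 CPM per kb, under H2-Eb1 at 265, so the order of the chains depends on the transcript model. With that length H2-DMa was at 17.6 and H2-DMb1 at 31.4 CPM per kb, so their near equality depends on it too.

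None of the 3 chains was called, and the groups overlapped for each. H2-Aa (ENSMUSG00000036594, chromosome 17, 34282744 to 34287823 on GRCm38), the alpha chain of I-A, was at 391, 457 and 637 CPM in WT replicates 1 to 3 and at 522, 650 and 697 CPM in NM1 KO replicates 1 to 3. WT replicate 3 reached into the NM1 KO range, and the log2 fold change was 0.33 ± 0.21 (interval -0.16 to 0.82, adjusted p = 0.374). H2-Ab1 (ENSMUSG00000073421, chromosome 17, 34257689 to 34269419), its beta chain, was at 443, 538 and 709 CPM in WT and at 509, 615 and 693 CPM in NM1 KO. The highest library was a WT one, and the log2 fold change was 0.10 ± 0.20 (interval -0.37 to 0.58, adjusted p = 0.788). H2-Eb1 (ENSMUSG00000060586, chromosome 17, 34305867 to 34316674), the beta chain of I-E, was at 407, 496 and 644 CPM in WT and at 478, 614 and 658 CPM in NM1 KO, again with overlap (log2 0.18 ± 0.20, interval -0.30 to 0.65, adjusted p = 0.636).

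Cd74 (ENSMUSG00000024610, chromosome 18), which encodes the invariant chain, was at 1009, 1116 and 1518 CPM in WT and at 1112, 1286 and 1380 CPM in NM1 KO, so that the NM1 KO libraries lay inside the WT range. Its log2 fold change was 0.052 ± 0.19 (interval -0.38 to 0.49, adjusted p = 0.891). Ciita (ENSMUSG00000022504, chromosome 16, 10480059 to 10528418) was at 19.2, 27.7 and 22.3 CPM in WT and at 24.1, 25.1 and 27 CPM in NM1 KO. It did not follow the chains within WT, since its highest WT library was replicate 2 whereas theirs was replicate 3. The log2 fold change was 0.14 ± 0.16 (interval -0.23 to 0.51, adjusted p = 0.63). Dexi, on the opposite strand over 3.5% of the exonic length of Ciita, was not called (adjusted p = 0.725).

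The 3 chains and Cd74 ranked the libraries alike. For these 4 genes replicate 1 was the lowest and replicate 3 the highest library of each genotype. Outside the members, the genes whose pattern over the 6 libraries lay nearest to theirs were Clec11a, Insyn1, Epb41l5, Ddx58 and Dtx3l. Their root mean square differences were 0.0727, 0.079, 0.08, 0.0828 and 0.094 on the log2 scale, where the median of 10918 genes was 0.322. Clec11a encodes a secreted C-type lectin and Ddx58 the viral RNA sensor RIG-I. With the members included, H2-Eb1, H2-Ab1, Cd74 and H2-Aa ranked 1, 2, 3 and 8 among the 10918 genes, H2-Aa being nearer (0.0866) than Dtx3l. The pattern was the mean of these 4 genes, so their own ranks are partly fixed by it. H2-DMa ranked 204, Ciita 877, H2-DMb1 3784, H2-DMb2 10542 and H2-Ob 10615, and H2-Oa was too low to be compared. The likeness is over 6 libraries that the chains share with every gene, and is a description.

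Some ratios between members separated the groups and some did not, and no share over all pairs of genes was computed to set beside them. Cd74 over the 3 chains, in CPM per kb, was 0.749, 0.69 and 0.701 in WT and 0.674, 0.628 and 0.618 in NM1 KO, with no overlap. The 3 chains over H2-DMb1 overlapped (25.5, 30.8 and 40.1 in WT, 20.9, 26.4 and 28 in NM1 KO), and so did H2-Ob over H2-DMb1. H2-Aa over H2-Ab1, in CPM per kb, was 0.948, 0.912 and 0.965 in WT and 1.10, 1.14 and 1.08 in NM1 KO, with no overlap, although neither gene was called. The longest transcript of H2-Aa has a GC content of 46.5% and that of H2-Ab1 57.3%. After an offset for GC content and length in each library, the log2 fold changes were 0.28 for H2-Aa and 0.33 for H2-Ab1, against 0.33 and 0.10 without it. The same offset moved Cd74 from 0.052 to 0.25, H2-DMa from 0.001 to 0.19 and H2-Ob from 0.61 to 0.49. The part of GC content in the ratio was not tested.

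**Figure D3:**
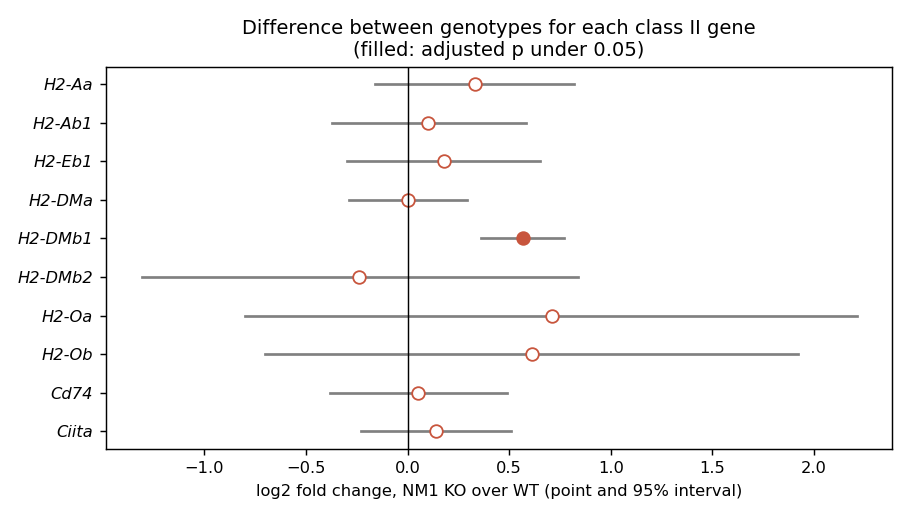
Log2 fold change of NM1 KO over WT for each class II gene (point) with its 95% interval (line), with filled points for an adjusted p under 0.05. Only the interval of H2-DMb1 (0.36 to 0.77) lies clear of 0, and those of H2-DMb2, H2-Oa and H2-Ob are the widest.

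H2-DMb1 (ENSMUSG00000079547, chromosome 17, 34153072 to 34160230) was at 52.6, 52.2 and 53.8 CPM in WT replicates 1 to 3 and at 78.7, 77.1 and 79.3 CPM in NM1 KO replicates 1 to 3. These are 1343 to 1633 counts per WT library and 2177 to 2525 per NM1 KO library. The groups were tight and far apart: 52.9 ± 0.845 against 78.3 ± 1.16 CPM, a fold change of 1.48. The log2 fold change was 0.57 ± 0.087 (interval 0.36 to 0.77, adjusted p = 0.0251 by edgeR's quasi-likelihood test). It was 0.71 with that offset (adjusted p = 0.0166). With 1 library left out, the log2 fold change lay between 0.56 and 0.58, but the adjusted p passed 0.05 without WT replicate 1 (0.081), WT replicate 2 (0.0744), WT replicate 3 (0.106), NM1 KO replicate 1 (0.0543) and NM1 KO replicate 3 (0.0832), and stayed under it without NM1 KO replicate 2 (0.0192). All genes called numbered 1 to 1654 in the same removals, against 673.

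H2-DMa (ENSMUSG00000037649, chromosome 17, 34119541 to 34139101), the alpha chain that pairs with H2-DMb1, was not called. It was at 59.2, 58.9 and 63.9 CPM in WT and at 51.8, 63.7 and 66.7 CPM in NM1 KO, with both the lowest and the highest library in NM1 KO. The log2 fold change was 0.001 ± 0.12 (interval -0.29 to 0.29, adjusted p = 0.997). Per kilobase, H2-DMb1 over H2-DMa was 1.05, 1.05 and 0.994 in WT and 1.79, 1.43 and 1.40 in NM1 KO, so the ratio was higher in every NM1 KO library than in any WT library. Its size, though not the order of the libraries, depends on the transcript lengths used, as given above. Brd2, a gene on the opposite strand, shares 10.4% of the exonic length of H2-DMa, and was not called (adjusted p = 0.395).

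H2-DMb2 (ENSMUSG00000037548, chromosome 17, 34143307 to 34151555) is a further beta chain gene that lies 1516 bases from H2-DMb1 and is closely related to it. It was at 17.2, 18.2 and 12.1 CPM in WT and at 24.4, 7.54 and 8.34 CPM in NM1 KO. NM1 KO replicate 1 was thus the highest library and the remaining NM1 KO libraries lay below every WT library. The log2 fold change was -0.24 ± 0.46 (interval -1.31 to 0.84, adjusted p = 0.788), and it was -0.98 without NM1 KO replicate 1 (adjusted p = 0.0968), while without NM1 KO replicate 2 it was 0.049 and without NM1 KO replicate 3 it was 0.014.

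Reads from the shared parts of the pair may have been split or dropped in counting. Of the 50-base words in the transcripts of H2-DMb1, 22.7% also stand in those of H2-DMb2, and 21.2% the other way round. The sum of both genes does not depend on which of them a shared read was assigned to, though dropped reads would be missing from it. It was 69.8, 70.4 and 65.9 CPM in WT and 103, 84.6 and 87.7 CPM in NM1 KO, still without overlap. H2-DMb1 made up 75.4%, 74.2% and 81.6% of that sum in WT and 76.4%, 91.1% and 90.5% in NM1 KO. The share in NM1 KO replicate 1 was like that in WT, whereas the level of H2-DMb1 there was like that of the other NM1 KO libraries.

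The H2-O genes, which restrain H2-DM and are known from B cells above all, varied most. H2-Ob (ENSMUSG00000041538, chromosome 17, 34238903 to 34254414), the beta chain, was at 8.99, 10.8 and 7.49 CPM in WT and at 27.5, 8.30 and 5.72 CPM in NM1 KO. A single library, NM1 KO replicate 1, held the high value, and the log2 fold change of 0.61 ± 0.56 (interval -0.70 to 1.92, adjusted p = 0.55) became -0.36 without it. H2-Oa (ENSMUSG00000024334, chromosome 17, 34092340 to 34095234), the alpha chain, was at 0.813, 1.44 and 0.922 CPM in WT and at 3.48, 0.671 and 1.06 CPM in NM1 KO, from 22 to 108 counts per library. Its log2 fold change was 0.71 ± 0.64 (interval -0.80 to 2.21, adjusted p = 0.545), and -0.28 without NM1 KO replicate 1. BC051537, on the opposite strand over 22.8% of the exonic length of H2-Oa, had 0 counts in every library.

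The same library held the most RNA of B cell genes. Summed over 11 B cell genes, the level was 93.1, 153 and 88.9 CPM in WT and 396, 73.7 and 52.0 CPM in NM1 KO, leaving out Ebf1, which fat cells and their precursors also express and which was set aside after its values were seen. With Ebf1, 11 of 12 B cell genes were highest in NM1 KO replicate 1, 0 of 12 were called, and the summed level lay between 274 and 277 CPM in WT and between 193 and 520 CPM in NM1 KO. No B cell gene of the list was at 0 counts throughout. Of 5 matched genes of lymph node stroma and follicles, Glycam1 had 0 counts in every library and Madcam1 at most 2. Cxcl13 and Ccl19 were highest in WT replicate 2 (30.8 and 2.78 CPM) and Ccl21a, whose near-identical copies make its count uncertain, in NM1 KO replicate 1 (15.1 CPM). The sum of the 5 was 36 CPM in NM1 KO replicate 1 and 33.6 CPM in WT replicate 2, the highest library of each group. The part of B cell content in the H2-O and H2-DMb2 values was not tested. H2-DMb1 showed no such step, at 78.7 CPM in NM1 KO replicate 1 and 77.1 and 79.3 CPM in the other NM1 KO libraries.

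**Figure D4:**
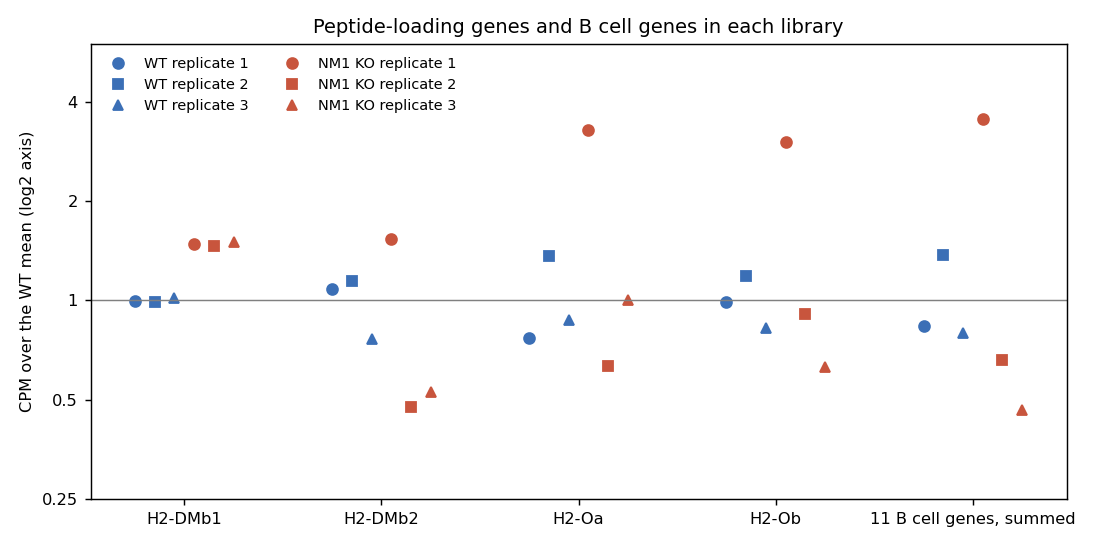
Level of 4 peptide-loading genes and the sum of 11 B cell genes in each library, divided by the WT mean (log2 axis, grey line at the WT mean). H2-DMb2, H2-Oa, H2-Ob and the B cell sum are highest in NM1 KO replicate 1, while the 3 NM1 KO libraries of H2-DMb1 lie together.

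Macrophages, which present on class II, also had genes that passed the test. Of 12 macrophage genes 3 were called, all higher (Adgre1, Cd68 and Lyz2), beside 4.25% of all genes. Over the 12, log2 fold changes were positive for 10 and negative for 2, with a median of 0.42. The negative genes, named after their values were seen, were Cd163 (-0.85 ± 0.43, adjusted p = 0.276) and Cd14 (-0.077 ± 0.15, adjusted p = 0.787). The summed level lay between 2912 and 4056 CPM in WT and between 5514 and 6537 CPM in NM1 KO, with none at 0. Lyz2 alone averaged 1156 ± 231 CPM in WT and 2536 ± 542 CPM in NM1 KO. Adgre1, which encodes F4/80, was at 114, 81.6 and 94.6 CPM in WT and at 287, 226 and 221 CPM in NM1 KO (log2 1.34 ± 0.16, adjusted p = 0.0182). Of 12 dendritic cell genes 1 was called, and their sum lay between 256 and 331 CPM in WT and between 345 and 409 CPM in NM1 KO, with none at 0. Their log2 fold changes were positive for 5 and negative for 7, with a median of -0.19. The called gene was Itgax, the integrin CD11c, which macrophages of fat also carry, at 25.8, 12.8 and 7.53 CPM in WT and at 171, 108 and 61.7 CPM in NM1 KO (log2 2.88 ± 0.53, adjusted p = 0.035). Without Itgax, left out after its values were seen, the dendritic cell sum lay between 243 and 323 CPM in WT and between 238 and 295 CPM in NM1 KO, with overlap. Flt3, a receptor of dendritic cells, gave a log2 value of 0.57 ± 0.44 (adjusted p = 0.48). Zbtb46, a transcription factor of conventional dendritic cells, named after its values were seen, gave -0.59 ± 0.22 (adjusted p = 0.162). The part of these cell types in the H2-DMb1 value was not tested.

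Regulators upstream of the class II genes were called at about the share of all genes (4.25%). Of 11 factors and cofactors of the promoter module, 0 were called by edgeR and 2 had an unadjusted p under 0.05, both higher, near the 13% of all genes (median log2 fold change 0.076). Rfx5, the X box factor, averaged 13 ± 2.47 CPM over WT libraries and 14 ± 1.52 CPM over NM1 KO libraries (log2 0.12 ± 0.18, adjusted p = 0.737). Of 9 genes between interferon-gamma and Ciita, 8 were tested and 1 was called, with a median of 0.01. Jak1, a kinase on the interferon-gamma receptor, rose from 198, 202 and 197 CPM in WT to 327, 286 and 327 CPM in NM1 KO (log2 0.66 ± 0.10, adjusted p = 0.0257). Jak2, of the same list and named after its values were seen, was at 33.1, 38 and 36 CPM in WT and at 58.9, 25.8 and 51.3 CPM in NM1 KO. It was not called (log2 0.34 ± 0.28, adjusted p = 0.505). Without a single library the adjusted p of Jak1 was between 0.0562 and 0.111 for each library but NM1 KO replicate 2 (0.0167). Irf1, a transcription factor induced by interferon-gamma, was at 88.9, 90.0 and 119 CPM in WT and at 59.7, 72.2 and 85.0 CPM in NM1 KO, with no overlap, and was not called (log2 -0.46 ± 0.17, adjusted p = 0.169). Ifng itself was at 0.219 CPM or lower in every library, too low to test.

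The 7 proteases of the endosomal list, which prepare peptides and cut the invariant chain, summed to between 5597 and 6634 CPM in WT and between 9250 and 12486 CPM in NM1 KO, a sum over proteases alone that was added after seeing the data. Of 11 genes of endosomal proteolysis and reduction, 2 were called higher, beside 2.79% of all genes, and 0 lower. An unadjusted p under 0.05 was reached by 9, all higher, beside 13% of all genes. Ranges did not overlap for 10, beside 29.9% of all genes. The median log2 fold change was 0.52. Ctss, cathepsin S, which makes the last cuts in the invariant chain, rose from 219, 190 and 204 CPM in WT to 916, 499 and 603 CPM in NM1 KO (log2 1.72 ± 0.23, adjusted p = 0.0186). Lgmn, the asparaginyl endopeptidase legumain, rose from 226, 312 and 231 CPM to 554, 451 and 394 CPM (log2 0.86 ± 0.18, adjusted p = 0.0467). These proteases also serve lysosomes in general, and some macrophage genes moved with them as given above. Without each library in turn, the call of Ctss was lost for WT replicates 1, 2 and 3 and NM1 KO replicate 3 (adjusted p 0.0627 to 0.0933), and that of Lgmn for all but NM1 KO replicate 2 (0.0704 to 0.17). Lgmn also missed the threshold with library totals alone (0.0524) and with a filter of 1 CPM in 3 libraries (0.0502).

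A list of 6 genes covered the turnover and surface functions of class II and the invariant chain (Marchf1, Marchf8, Cd83, Sppl2a, Mif and Cd44). In it 1 gene was called, beside 4.25% of all genes, with a median log2 fold change of 0.54. An unadjusted p under 0.05 was reached by 3 of them, all higher, beside 13% of all genes. Ranges did not overlap for 4 of the 6, beside 29.9% of all genes. Cd83, which shields class II molecules from ubiquitination, rose from 16.1, 9.91 and 14.9 CPM in WT to 51.8, 44 and 38.9 CPM in NM1 KO (log2 1.72 ± 0.21, adjusted p = 0.0182). Its adjusted p was between 0.0535 and 0.0859 without any 1 of the WT libraries or NM1 KO replicate 3. Marchf1, the ubiquitin ligase that CD83 opposes, was at 7.69, 8.76 and 11.3 CPM in WT and at 35.1, 12.1 and 17.5 CPM in NM1 KO, and was not called (log2 1.22 ± 0.39, adjusted p = 0.119). Of 6 co-stimulation genes 5 were tested and 0 called by edgeR, with 1 at an unadjusted p under 0.05 (higher, beside 13% of all genes). Cd86 gave a log2 value of 0.35 ± 0.31 (adjusted p = 0.54).

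**Figure D5:**
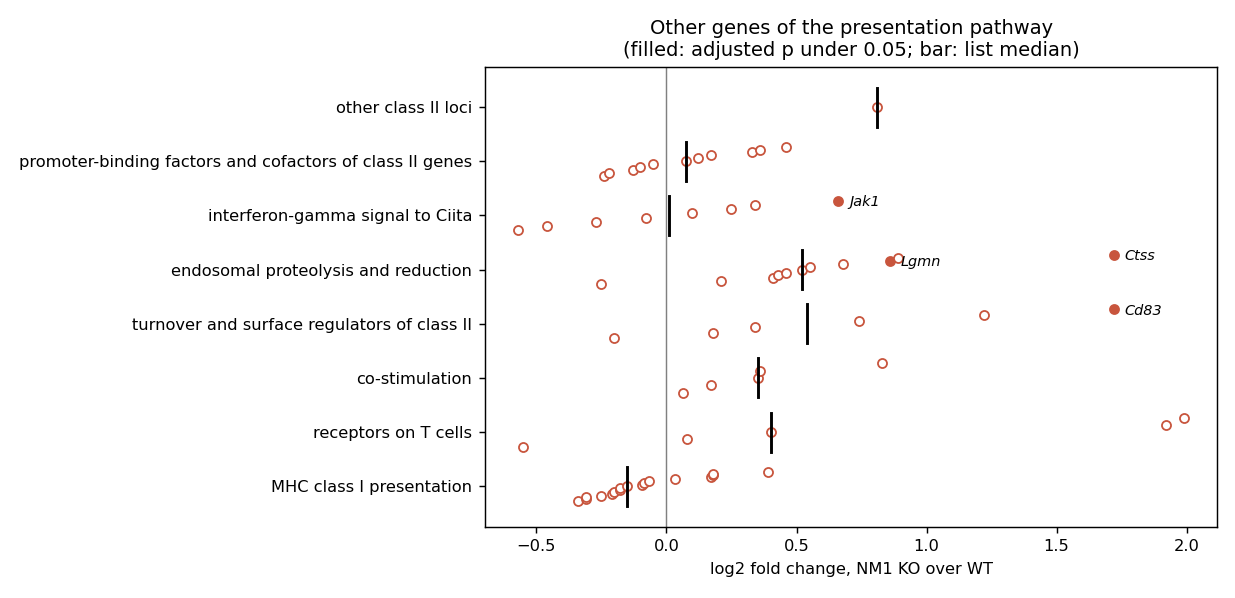
Log2 fold change of NM1 KO over WT for 64 tested genes in 8 lists around class II presentation (points, filled where the adjusted p was under 0.05), with each list's median as a bar. The 4 filled genes are Jak1, Ctss, Lgmn and Cd83, and the MHC class I list lies around and below 0.

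On the side of the responding T cell, 0 of 5 genes were called by edgeR and 2 had an unadjusted p under 0.05 (both higher, beside 13% of all genes). Cd4, the co-receptor for class II, was at 0.85, 1.57 and 1.2 CPM in WT and at 7.66, 0.763 and 5.36 CPM in NM1 KO, so NM1 KO replicate 2 lay below every WT library (log2 1.92 ± 0.75, adjusted p = 0.182). The other class II loci were low. The inactive alpha chain gene H2-Ea had counts in a single library, NM1 KO replicate 1 (4 counts), and H2-Eb2 lay between 0.24 and 2.83 CPM.

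MHC class I presentation, which shares the interferon response but not the endosomal route, gave 0 calls among 17 genes by edgeR and 0 at an unadjusted p under 0.05, with 5 positive and 12 negative log2 fold changes and a median of -0.15. B2m, the light chain, was at 1653, 1452 and 2599 CPM in WT and at 1983, 1856 and 2612 CPM in NM1 KO, with replicate 3 highest in each group (log2 0.18 ± 0.25, adjusted p = 0.711). H2-K1, a heavy chain, gave a log2 value of 0.032 ± 0.28 (adjusted p = 0.96), and Nlrc5, the class I counterpart of Ciita, one of -0.25 ± 0.23 (adjusted p = 0.55). WT replicate 3, the WT library with the most class II chain RNA, was also the WT library with the most B2m RNA. Over all 67 listed genes around the class II members, 64 were tested and 4 called, all higher, beside the 2.79% of all genes called higher.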

How the data were processed

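Per the labels, total RNA of visceral fat went into NEBNext Ultra II libraries read on a NextSeq. The tools named in the submitters' processing notes are HTSeq, HISAT2 2.0.4, SAMtools 0.1.19, Trimmomatic 0.36 and FastQC, on GRCm38. The sources used here give no annotation, strand setting or treatment of reads with several matches. The authors deposited 1 table of raw whole-number counts per library, with 46603 Ensembl identifiers, of which 46005 matched GENCODE M21 by identifier.

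Libraries were grouped by genotype label. All genes were fitted in edgeR 4.0.16 (R 4.3.3) with filterByExpr, TMM scaling, a robust quasi-likelihood fit on genotype alone, two-sided tests and Benjamini-Hochberg adjustment over 15828 genes and a threshold of 0.05. The SE is the log2 fold change over the square root of F, and the 95% interval uses the test's degrees of freedom. Intervals cover the spread between libraries. Likeness to the chains was the root mean square difference of log2(CPM + 0.5) deviations from each gene's mean, over named protein-coding genes averaging 5 CPM or more. Levels per kb used the APPRIS principal transcript, chosen after seeing the data.

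The members and the lists were chosen with earlier results of these data known. All members are named. Of the pathway lists every called gene and a fixed few are named, and of the marker lists a fixed few. Some further genes of these lists were named after their values were seen. Alternatives were other scalings and filters, DESeq2 1.42.0, limma-voom (limma 3.58.1), the replicate number as a block, a GC content and length offset (natural splines, 5 degrees of freedom) and leaving out each library. The fits were tested on a single set of simulated counts, with the changed genes and their folds set in advance. There edgeR, limma-voom and DESeq2 all made more false calls than the nominal rate. Adjusted p-values near the threshold may therefore be somewhat too small here, by an amount that a single simulated set cannot give. DESeq2 made the most false calls, more than the limit first set, which was then kept for edgeR and limma-voom only. Results for a few listed genes are not reported here.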

Additional observations from a re-analysis of the deposited data

How the results depend on the processing

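H2-DMb1 was the 1 member called, and this count was 1 under RLE scaling, library totals alone, both filters, DESeq2, limma-voom and the GC content and length offset, with and without the block. It was 0 with the replicate block alone (adjusted p = 0.0563 for H2-DMb1, log2 0.57), and with 1 library left out it lay between 0 and 1. Of the 64 pathway genes tested, 4 were called. With DESeq2 15 of 65 were called, where it called 12.8% of all genes. The calls numbered 7 with the GC content and length offset, 2 with the replicate block, and 0 to 9 with 1 library left out. Over all genes 673 calls became 2193 with DESeq2, 336 with the replicate block, and 1 to 1654 with 1 library left out. The replicate block ended the calls of Jak1 (adjusted p = 0.0562, and 0.0594 with the GC content and length offset) and Lgmn (0.077). The cause was not tested. Same-numbered libraries deviated from their group means with r of -0.06, -0.035 and 0.188, and pairs with different numbers with r from -0.097 to 0.112. Deviations within a group of 3 sum to 0, so these r cannot decide whether same-numbered libraries share a batch.

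Some members that were not called changed sign. With 1 library left out, the log2 fold changes ran from -0.042 to 0.30 for H2-Ab1, -0.068 to 0.12 for H2-DMa, -0.98 to 0.049 for H2-DMb2, -0.28 to 1.09 for H2-Oa, -0.36 to 0.98 for H2-Ob and -0.066 to 0.24 for Cd74. H2-DMa was at -0.026 with library totals alone, -0.0061 with the CPM filter, -0.0066 with limma-voom and -0.0063 with the replicate block, and with 1 library left out at -0.017 (WT replicate 1), -0.019 (WT replicate 2), -0.034 (NM1 KO replicate 2) and -0.068 (NM1 KO replicate 3). H2-Ab1 was at -0.042 without WT replicate 1 and -0.0001 without NM1 KO replicate 3. Cd74 was at -0.066, -0.0048 and -0.016 without WT replicate 1, WT replicate 2 and NM1 KO replicate 3. H2-DMb2 was at 0.049 and 0.014 without NM1 KO replicates 2 and 3. Without NM1 KO replicate 1, H2-Oa was at -0.28 and H2-Ob at -0.36. Counts of 22 to 108 limit what can be said of H2-Oa.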
